A study of Homo sapiens with 18 samples.

Results

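The H33 clone was set against HepG2 across every gene that the authors' comparison of these lines lists, 14888 genes, out of 15019 genes listed for either clone of the study. The tested libraries were 6 of H33, labelled as a HepG2 clone that carries the DNAJB1-PRKACA fusion, and the controls were 6 libraries of HepG2, a hepatoblastoma line with the genotype label WT. Both lines have the same growth protocol, RPMI1640 with fetal bovine serum, penicillin, streptomycin and glutamine, with no drug named. The comparison asks which transcripts differ between cells labelled as fusion-bearing and the line the labels name as their parent. H33 is a single clone, so clone and genotype cannot be told apart. The table holds no genotypes, so the descent of H33 from this HepG2 line was not tested, and each difference below is one between 2 lines as labelled, not an effect of the fusion.

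The fusion links the start of DNAJB1, which assists HSP70 chaperones, to PRKACA, the catalytic part of protein kinase A (PKA), an enzyme that cAMP switches on. It is the defining event of fibrolamellar carcinoma, a liver cancer. PKA phosphorylates the transcription factor CREB, which binds the cAMP response element in promoters of its target genes. HepG2 cells are known for making many plasma proteins of the hepatocyte.

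The authors' deposited table gives, for each gene, a log2 fold change of H33 over HepG2, a mean log2 CPM (counts scaled to library size) over the libraries, and a likelihood ratio test. Levels in CPM below are implied, that is, computed from these values on the assumption of equal group sizes. Single libraries are not shown by the table, so the spread within a group and the overlap of groups are unknown. The error given after ± is an approximate standard error (SE) of a log2 fold change, derived from the likelihood ratio. It is not a sampling error where the level in a line is low, so it does not bound the fold change there. CPM is not corrected for transcript length, so levels are set side by side between groups and not between genes. An implied level under 0.01 CPM is that of a gene with almost no reads in that group, and no fold change is printed against it. A gene is called at an adjusted p under 0.05, from the authors' edgeR likelihood ratio test with Benjamini-Hochberg adjustment, and is written as higher or lower only where the change was also at least 2-fold. In bulk RNA, fewer cells of a type and less RNA per cell cannot be told apart.

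The authors' deposited table had 89.6% of its genes called, 44.2% higher and 45.3% lower, and 44.5% were called with a change of at least 2-fold. The 2-fold calls were 3183 higher genes, 21.4%, and 3443 lower genes, 23.1%, and every count of a gene list below is to be read against these shares. List members with few reads in both lines may be missing from such counts, and 2-fold shares are larger among rare genes. The median log2 fold change of all genes was -0.02. PRKACA stood at 358 CPM in H33 and 80.6 CPM in HepG2, a log2 fold change of 2.15 ± 0.03 in the authors' deposited table. Counts per gene do not separate the fusion transcript from the native one. DNAJB1 stood at 178 CPM in H33 and 204 CPM in HepG2, under the 2-fold limit.

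Set against the label of a hepatoblastoma line, 13 of 16 hepatocyte and hepatoblast markers were lower in H33. AFP, the fetal serum albumin relative, was at 0.0372 CPM in H33 and 4111 CPM in HepG2, and HNF4A, a nuclear receptor that drives hepatocyte genes, was at 0.785 CPM in H33 and 348 CPM in HepG2. KRT8 and KRT18, the keratins of simple epithelia, and CPS1, an enzyme of the urea cycle, were under 2-fold. Of 9 neuroendocrine markers, 4 were higher, and CHGA and NCAM1 were among those not listed. Of 8 fibroblast markers 3 were listed: COL3A1 was higher, at 3.81 CPM in H33 and 0.0450 CPM in HepG2, PDGFRB was lower, and COL1A1 was under 2-fold. Of 8 kidney tubule markers PAX8, PAX2 and CUBN were higher, CDH16 was lower and 4 were not listed. Of 7 endothelial markers only CDH5 was listed, and it was lower. Of 7 leukocyte markers 3 were listed: CD68, a lysosomal protein, was higher, LYZ, lysozyme, was lower, at 3.75 CPM in H33 and 3130 CPM in HepG2, and CD14 was under 2-fold. Of 8 squamous and urothelial markers 2 were listed: TP63 was higher, and UPK3A, a urothelial plaque protein, was lower, at 0.0237 CPM in H33 and 10.8 CPM in HepG2. The part of other cell types in the changes below was not tested.

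Large changes reached every level of abundance, and their share was greatest among rare transcripts. The mean runs over both lines, so a gene read in only 1 line has a lower mean than its level there. Below a mean of 0 log2 CPM, 542 of 1362 genes were at least 2-fold higher and 447 at least 2-fold lower, with a median absolute log2 fold change of 2.45. Between 5 and 8 log2 CPM, 741 of 5470 genes were higher and 960 lower, with a median of 0.60. At 8 log2 CPM or more, 92 of 629 genes were higher and 107 lower. Of these 20 rose and 42 fell by at least 32-fold, together 9.86% of the class. Over all genes this share was 13.2%, with 5.77% higher and 7.46% lower. The median SE shrank from 0.30 in the rarest class to 0.04 in the most abundant one, so a change of a given size is measured more closely there.

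**Figure D1:**
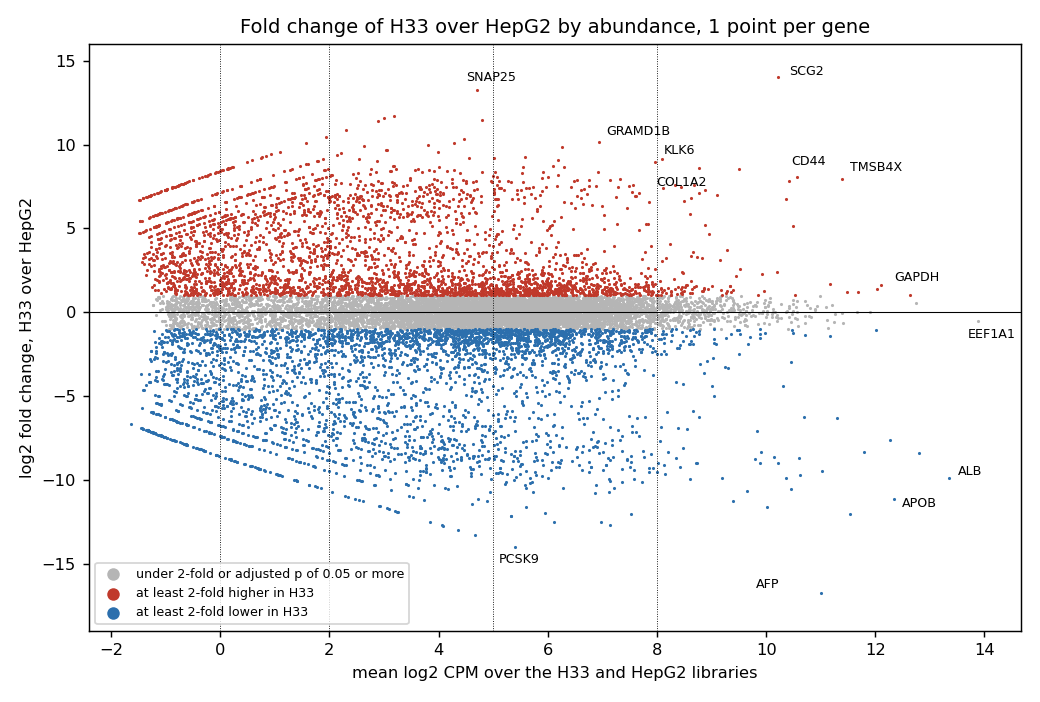
Log2 fold change of H33 over HepG2 in the authors' deposited table (vertical axis) against mean log2 CPM (horizontal axis), 1 point per gene, with dotted lines at the bounds of the abundance classes. Red points are the 3183 genes at least 2-fold higher and blue points the 3443 at least 2-fold lower; the slanted rows of points at the left are genes with almost no reads in 1 group.

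The genes with the most reads differed between the lines. Only 6 genes were among the 20 highest of both lines: EEF1A1, GAPDH, FTL, HSP90AB1, ENO1 and MT-CO1. Of the 20 highest in H33, 11 were at least 2-fold higher than in HepG2, while 12 of the 20 highest in HepG2 were at least 32-fold lower in H33. TMSB4X, which binds actin monomers, was at 5346 CPM in H33 and 21.8 CPM in HepG2. CD44, the hyaluronan receptor, was at 3001 CPM in H33 and 11.4 CPM in HepG2. VIM, the intermediate filament of mesenchymal cells, was at 2606 CPM in H33 and 23.9 CPM in HepG2, and ANXA1, a calcium-dependent membrane binding protein, was at 2721 CPM in H33 and 12.2 CPM in HepG2. TGM2, a protein crosslinking enzyme, was at 2812 CPM in H33 and 80.4 CPM in HepG2. FN1, fibronectin, went the other way, with 42.3 CPM in H33 and 14161 CPM in HepG2. Genes at least 32-fold higher held 5.86% of the summed implied CPM of H33 and 0.0465% of that of HepG2. Genes at least 32-fold lower held 0.0758% of the sum of H33 and 16.6% of that of HepG2. At 10 CPM or more were 9005 genes in H33 and 9316 in HepG2, of which 7962 were shared. Another 61 genes reached 10 CPM in H33 with under 0.1 CPM in HepG2, and 191 did the reverse.

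**Figure D2:**
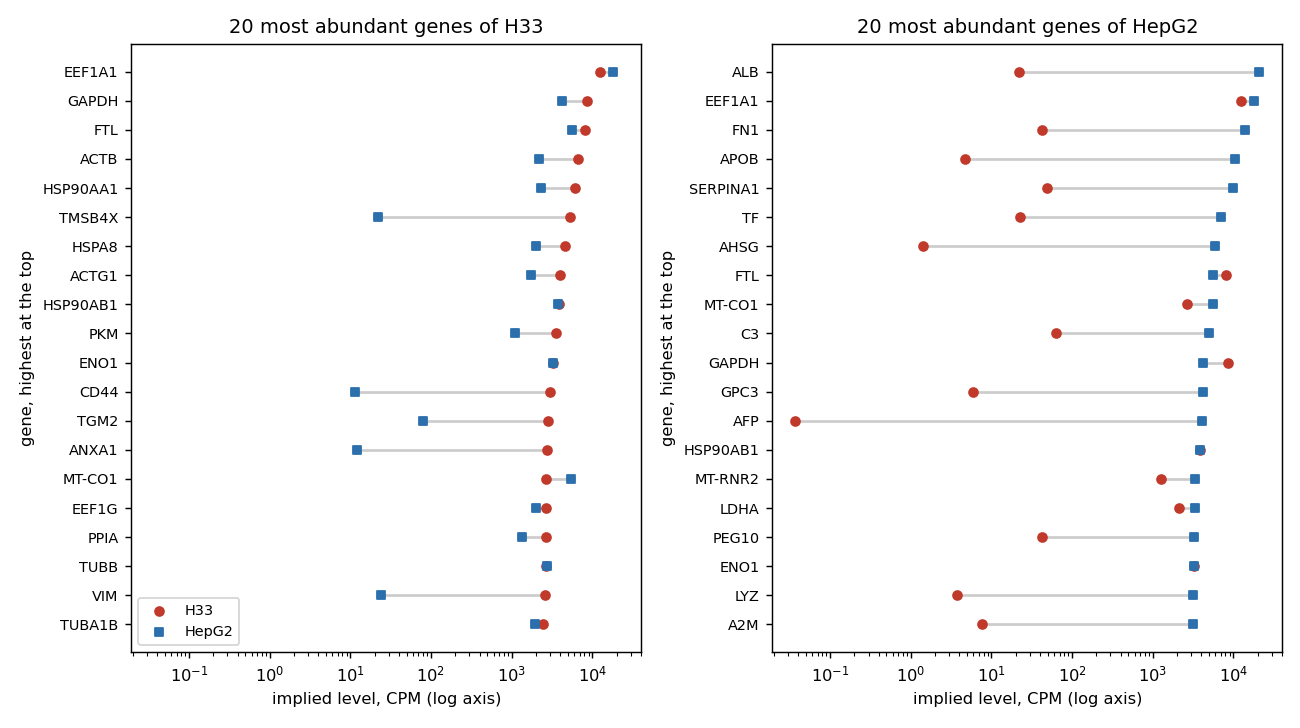
Implied CPM (log axis) of the 20 genes with the most reads in H33 (left) and in HepG2 (right); red circles are H33 and blue squares HepG2, joined for each gene. In the left panel TMSB4X, CD44, TGM2, ANXA1 and VIM lie far apart in the 2 lines, and in the right panel 12 genes do.

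Genes of regulated secretion and of nerve cells moved in both directions, with some large rises in H33. SCG2, a granin packed into dense-core vesicles, had the largest rise of the 8 log2 CPM class, 14.04 ± 0.11 in the authors' deposited table. SCG2 was at 2392 CPM in H33 and 0.142 CPM in HepG2, and at so low a HepG2 level the error is only approximate. SNAP25, a membrane fusion protein of the synapse, was at 51.9 CPM in H33 and under 0.01 CPM in HepG2, and RAB27B, a GTPase of secretory granule docking, was at 546 CPM in H33 and 0.986 CPM in HepG2. Of 28 listed genes of vesicle exocytosis 15 were higher, 53.6% beside 21.4% of all genes, and 6 were lower, 21.4% beside 23.1%. The lower ones include CPLX2, a complexin that clamps fusion, at 1.35 CPM in H33 and 473 CPM in HepG2. Among 12 listed genes of the neuronal cytoskeleton 7 were higher and 3 lower. DPYSL5 and TUBB4A rose to 29.3 and 39.6 CPM in H33, against 0.146 and 0.227 CPM in HepG2, while MAP1B, a microtubule-binding protein of axons, fell to 0.0425 CPM in H33, against 27.2 CPM in HepG2. Of the neural transcription factors 9 of 32 were listed, and 4 were higher and 3 lower. POU4F1, a factor of sensory neurons, fell to 0.0491 CPM in H33, against 5.04 CPM in HepG2. LHX1 was at 7.62 CPM in H33 and under 0.01 CPM in HepG2, and PAX6, the eye and neural tube factor, was at 22.1 CPM in H33 and 0.385 CPM in HepG2.

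The full cAMP response element was in a smaller share of promoters among the most changed genes than among all genes, and these counts were not tested. The palindrome TGACGTCA, the same on both strands, was found in 355 of 11056 RefSeq promoters of listed genes, 3.21%, reading 250 bases before to 50 after the gene start. The other listed genes, of 14888 in all, had no usable promoter entry and were not counted, SCG2 among them. The shares below therefore cover only a part of the most changed genes. It was in 6 of 317 promoters of genes at least 32-fold higher with 2 log2 CPM or more, 1.89%, and in 6 of 473 promoters of genes at least 32-fold lower, 1.27%, beside 3.40% of all genes of that abundance. The shorter core TGACG, or CGTCA on the other strand, lies inside the palindrome and was in 24.9% of the higher, 19.7% of the lower and 35.5% of all promoters of that abundance. The 6 higher genes were IFT43, VGF, IFT27, MLF1, PAX6 and GABBR1, and the 6 lower ones CDIP1, NR6A1, MCAM, CLDN6, FN1 and HLF. All were read from the match, and the naming rule takes only PAX6, CLDN6 and FN1 of them. Promoters of 2 genes from each side are shown 5′ to 3′ along the gene, to set the same site in genes of opposite change, from RefSeq on GRCh38.p14: VGF (chr7:101165520-101165819, minus strand) and PAX6 (chr11:31817912-31818211, minus), and FN1 (chr2:215436019-215436318, minus) and HLF (chr17:55264710-55265009, plus). Capitals mark the cAMP response element.
VGF: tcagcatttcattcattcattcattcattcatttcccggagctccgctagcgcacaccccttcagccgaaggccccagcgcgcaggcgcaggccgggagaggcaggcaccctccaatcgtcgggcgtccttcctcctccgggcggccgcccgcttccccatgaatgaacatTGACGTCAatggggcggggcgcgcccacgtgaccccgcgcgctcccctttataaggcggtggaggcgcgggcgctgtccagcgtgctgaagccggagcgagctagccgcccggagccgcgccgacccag
PAX6: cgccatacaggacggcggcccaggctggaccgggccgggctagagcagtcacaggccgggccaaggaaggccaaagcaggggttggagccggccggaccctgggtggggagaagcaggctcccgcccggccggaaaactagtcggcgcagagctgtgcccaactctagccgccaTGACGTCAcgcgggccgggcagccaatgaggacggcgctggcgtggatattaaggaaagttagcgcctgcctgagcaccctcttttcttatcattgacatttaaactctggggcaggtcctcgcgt
FN1: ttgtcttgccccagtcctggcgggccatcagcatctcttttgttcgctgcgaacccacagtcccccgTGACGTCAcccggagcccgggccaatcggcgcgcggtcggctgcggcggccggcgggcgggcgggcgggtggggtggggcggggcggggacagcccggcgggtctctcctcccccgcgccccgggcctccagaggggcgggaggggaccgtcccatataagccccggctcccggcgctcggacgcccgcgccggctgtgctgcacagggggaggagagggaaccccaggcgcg
HLF: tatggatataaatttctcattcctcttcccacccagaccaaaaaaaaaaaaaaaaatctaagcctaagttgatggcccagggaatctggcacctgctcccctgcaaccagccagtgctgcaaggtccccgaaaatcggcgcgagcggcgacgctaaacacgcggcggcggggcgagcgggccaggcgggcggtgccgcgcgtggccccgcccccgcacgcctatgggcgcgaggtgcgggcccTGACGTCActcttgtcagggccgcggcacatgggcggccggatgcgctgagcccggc
VGF encodes a secreted neuropeptide precursor and HLF a hepatic leucine zipper factor. VGF was at 10.7 CPM in H33 and 0.127 CPM in HepG2, and its site starts at position -79 from the gene start. The PAX6 site starts at -76. HLF was at 1.16 CPM in H33 and 684 CPM in HepG2 with a site at -7, and the site of FN1 starts at -183. A match describes the letters in this window and says nothing of binding.

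Ion channel genes went mostly one way for potassium and both ways for sodium and calcium. Of 28 listed potassium channel genes 23 were higher, 82.1% beside 21.4% of all genes, with a median log2 fold change of 5.39 in the authors' deposited table. Only listed genes are counted, so channels with few reads in both lines may be missing. The share over all genes is also larger among rare ones, with 39.8% higher below 0 log2 CPM. KCNN4, a calcium-activated channel, was at 128 CPM in H33 and 0.486 CPM in HepG2, and KCNK5, a background potassium channel, was at 91.7 CPM in H33 and 0.290 CPM in HepG2. KCNJ10, an inward rectifier, was lower, at 0.0112 CPM in H33 and 7.47 CPM in HepG2. Among 20 sodium and calcium channel genes 11 were higher and 9 lower. CACNG6 rose to 11.8 CPM in H33, against 0.0509 CPM in HepG2, and SCN9A, a sodium channel of sensory neurons, fell to 0.0240 CPM in H33, against 59.3 CPM in HepG2. Of 265 solute carriers, the membrane transporters, 53 were higher, near the share of all genes, and 101 lower, 38.1% beside 23.1%; SLC38A3, a glutamine transporter of liver, fell to 0.0241 CPM in H33, against 138 CPM in HepG2.

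Ligands and receptors moved in both directions within most families. Of 24 listed growth factor genes 12 were higher and 9 lower. Of the ligands of the EGF receptor family, EREG was at 255 CPM in H33 and 4.61 CPM in HepG2, and BTC at 20.02 CPM in H33 and 0.147 CPM in HepG2. IGF2, a fetal growth factor, fell to 115 CPM in H33, against 2429 CPM in HepG2. Among 22 receptor tyrosine kinases 4 were higher and 11 lower. ERBB3, a partner of the EGF receptor, was at 4.90 CPM in H33 and 395 CPM in HepG2, while DDR2, a collagen receptor, was at 110 CPM in H33 and 1.57 CPM in HepG2. In the TGF-beta and BMP list 9 of 39 were higher and 18 lower. TGFBR2, the type II TGF-beta receptor, fell to 1.58 CPM in H33, against 317 CPM in HepG2; FST, an activin trap, fell to 0.196 CPM in H33, against 133 CPM in HepG2; and BMP7 rose to 18.6 CPM in H33, against 0.0953 CPM in HepG2. Notch and Hedgehog genes were mostly higher, 18 of 28, with 2 lower. DNER and the Notch ligand JAG2 rose to 241 and 28.7 CPM in H33, against 0.736 and 0.199 CPM in HepG2, and DLK1, a noncanonical ligand, fell to 0.0434 CPM in H33, against 282 CPM in HepG2. Of 25 genes that damp the ERK pathway or respond to it, 11 were higher, such as SPRY2, an inhibitor of the pathway, at 125 CPM in H33 and 12.7 CPM in HepG2, and 7 lower, such as the ERK phosphatase DUSP6 at 2.61 CPM in H33 and 82.8 CPM in HepG2. PTGES, which makes prostaglandin E, was at 146 CPM in H33 and 0.274 CPM in HepG2. Axon guidance genes split, with 20 of 44 higher and 16 lower: SEMA3A, a secreted repellent, rose to 385 CPM in H33, against 3.20 CPM in HepG2, and SEMA4G fell to 0.299 CPM in H33, against 217 CPM in HepG2.

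Most listed HOX genes, the factors of position along the body axis, were higher. Of 39 HOX genes 20 were not listed, and those with few reads in both lines may be among them. Of the 19 listed HOX genes 15 were higher and 3 lower, with a median log2 fold change of 6.80 in the authors' deposited table. This median covers the listed genes and is not one over all HOX genes. With at least 1 log2 CPM, 9 higher and 0 lower HOX genes remained, and all of these were HOXB genes of a single cluster, HOXB2 to HOXB13. The other HOX calls were of rare transcripts. HOXB9 was at 120 CPM in H33 and 0.369 CPM in HepG2, a log2 fold change of 8.35 ± 0.09 in the authors' deposited table. This error is only approximate, since the HepG2 level was low. EHF, an ETS factor of epithelia, was at 216 CPM in H33 and 0.918 CPM in HepG2, and TP63, a factor of squamous epithelium, was at 156 CPM in H33 and 1.62 CPM in HepG2. Of 20 listed SOX, GATA, TBX and PAX genes 6 were higher and 9 lower. GATA3 rose to 3.34 CPM in H33, against under 0.01 CPM in HepG2, and PAX8 rose to 105 CPM in H33, against 8.77 CPM in HepG2. SOX5, TBX3 and SOX9 fell to 0.0739, 0.549 and 48.3 CPM in H33, against 26.1, 60.7 and 193 CPM in HepG2. The forkhead factors of liver endoderm fell: FOXA3, FOXA2 and FOXA1 were at 0.0679, 0.0740 and 0.459 CPM in H33, against 34.1, 31.9 and 50.3 CPM in HepG2.

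Genes of claudins, tight junctions and the cadherin list were more often lower than higher. Of 22 claudin and tight junction genes 2 were higher and 15 lower. CLDN1 and CLDN6 were at 27.7 and 0.421 CPM in H33, against 240 and 39.0 CPM in HepG2, while CLDN11 was higher, at 299 CPM in H33 and 7.68 CPM in HepG2. Of 23 listed cadherins, catenins and desmosome proteins 4 were higher and 13 lower; CDH2, N-cadherin, was under 0.01 CPM in H33 and at 10.2 CPM in HepG2. Integrins and adhesion receptors divided, with 16 of 41 higher and 14 lower. VCAM1, an endothelial-type ligand of leukocyte integrins, was at 55.6 CPM in H33 and 0.0199 CPM in HepG2, whereas ICAM1 was at 0.906 CPM in H33 and 237 CPM in HepG2. The keratin and mucin list had 8 of 13 higher, 61.5% beside 21.4% of all genes, and 2 lower. Another 19 of its 32 genes were not listed, and those with few reads in both lines may be among them. With at least 1 log2 CPM, 5 were higher. KRT8 and KRT18, the members with the highest mean CPM, were under 2-fold. MUC15 was under 0.01 CPM in H33 and at 6.64 CPM in HepG2, while MUC1, a surface mucin, was at 30.0 CPM in H33 and 0.0869 CPM in HepG2. ESRP2, an epithelial splicing factor, fell to 0.181 CPM in H33, against 41.4 CPM in HepG2.

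Matrix genes moved in both directions. Of 24 collagen genes 12 were higher and 9 lower. COL1A2 and COL5A2, chains of fibrillar collagens, were at 1440 and 1084 CPM in H33, against 3.86 and 8.42 CPM in HepG2, while COL1A1, partner of COL1A2 in type I collagen, was at 0.839 CPM in H33 and 0.483 CPM in HepG2, under 2-fold. COL4A5 and COL4A6, chains of basement membrane collagen, were at 0.0238 and 0.0237 CPM in H33, against 34.5 and 9.71 CPM in HepG2. COL4A1 and COL4A2, other chains of the same collagen type and chosen after their values were seen, were higher, at 12.2 and 13.9 CPM in H33, against 0.0737 and 0.330 CPM in HepG2. Of 30 laminins and proteoglycans 7 were higher and 16 lower, with NID1, a basement membrane linker, at 0.0882 CPM in H33 and 369 CPM in HepG2. Pericellular proteases and their inhibitors had 16 of 29 higher and 7 lower. KLK7, a serine protease of skin shedding, was at 38.7 CPM in H33 and 0.0348 CPM in HepG2, and TIMP3, a metalloprotease inhibitor, was at 0.626 CPM in H33 and 460 CPM in HepG2. S100 calcium-binding proteins had 8 of 14 higher and 3 lower: S100A4 and S100A6 were at 942 and 915 CPM in H33, against 6.07 and 24.7 CPM in HepG2. S100P was among the lower ones, at 0.234 CPM in H33 and 141 CPM in HepG2. Among 42 actin and tropomyosin genes 11 were higher and 15 lower, with the lower ones including VIL1, the microvillus bundler, at 0.810 CPM in H33 and 258 CPM in HepG2.

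**Figure D3:**
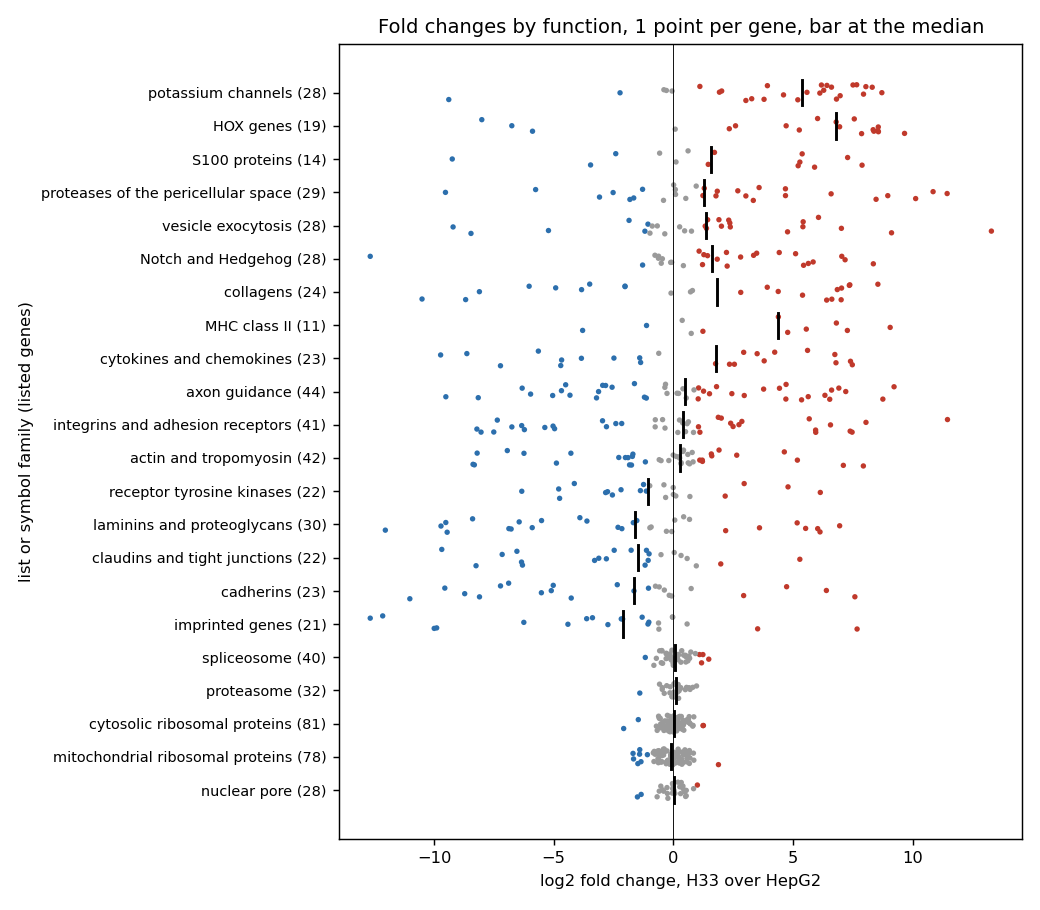
Log2 fold change of H33 over HepG2 in the authors' deposited table for 22 lists and symbol families, 1 point per listed gene, with the number listed in parentheses and a bar at the median. Red points passed the 2-fold call as higher, blue as lower and grey did not; the potassium channel and HOX medians lie at 5.39 and 6.80, and those of the ribosome, spliceosome, proteasome and nuclear pore near 0.

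Immune and defence genes had members with large changes in both directions. MHC class II genes had 7 of 11 higher and 2 lower, with HLA-DPA1 at 6.75 CPM in H33 and 0.0438 CPM in HepG2, whereas their chaperone CD74 was lower, at 5.48 CPM in H33 and 75.9 CPM in HepG2. Genes of the HLA family share near-identical sequence, so their counts are uncertain. IFI16 and CGAS, sensors of DNA, were at 63.0 and 17.4 CPM in H33, against 0.284 and 0.230 CPM in HepG2, and 13 of 35 interferon and innate genes were higher, with 5 lower. Of 23 cytokines and chemokines 12 were higher and 10 lower. CXCL5, a neutrophil attractant, was at 550 CPM in H33 and 3.26 CPM in HepG2, and CCL20, a lymphocyte attractant, was at 0.735 CPM in H33 and 291 CPM in HepG2. TNFRSF6B, a decoy receptor, was at 18.2 CPM in H33 and under 0.01 CPM in HepG2.

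Central metabolism had a few members far apart. PDK4, which blocks pyruvate dehydrogenase, was at 44.2 CPM in H33 and 0.0347 CPM in HepG2, ME1, which makes cytosolic NADPH, was at 31.3 CPM in H33 and 0.131 CPM in HepG2, and MPC1, a subunit of the mitochondrial pyruvate carrier, was lower at 11.2 CPM in H33 and 125 CPM in HepG2. HK1, a hexokinase, was at 209 CPM in H33 and 1.55 CPM in HepG2, while SLC2A2, the glucose transporter of liver, was at 0.215 CPM in H33 and 120 CPM in HepG2. Of 21 genes of sugar transport and hexosamine 6 were higher and 13 lower. Of 30 purine and pyrimidine genes 23 were under 2-fold, 6 were higher and 1 was lower. PRPS2, which makes the precursor of nucleotides, was the most changed, at 254 CPM in H33 and 37.2 CPM in HepG2.

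Machinery that all cells use was close to even. Of 81 cytosolic ribosomal proteins 77 were under 2-fold, and their median log2 fold change was 0.01 in the authors' deposited table. Of 32 proteasome genes 31 were under 2-fold, of 40 spliceosome genes 35, of 28 nuclear pore genes 25 and of 78 mitochondrial ribosomal proteins 70. PSMB5, a catalytic subunit, was the only lower proteasome gene, at 202 CPM in H33 and 535 CPM in HepG2. EEF1A2, the elongation factor of nerve and muscle, had the largest change of 43 translation factors, at 376 CPM in H33 and 1.93 CPM in HepG2.

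Some neighbouring genes were near 0 together. Runs of at least 3 consecutive listed coding genes with under 0.05 CPM in 1 line and at least 1 CPM in the other numbered 4 with H33 low, 12 genes, and 3 with HepG2 low, 9 genes. The H33-low runs were SCN1A, SCN9A and XIRP2 on chromosome 2, SCGN, SLC17A1 and SLC17A2 on chromosome 6, the hydroxycarboxylic acid receptors HCAR2, HCAR3 and HCAR1 on chromosome 12, and CHST9, CDH2 and DSC3 on chromosome 18. The HepG2-low runs included HOXB3, HOXB4 and HOXB5 on chromosome 17 and KLK7, KLK8 and KLK10 on chromosome 19. Around the HOXB run, from HOXB2 at GRCh38 position 48540894 to HOXB13 ending at 48729178, all 9 listed HOXB genes were higher, between 4.95 and 120 CPM in H33 and between 0.0132 and 0.369 CPM in HepG2. TTLL6, the next listed gene, was higher too, at 0.818 CPM in H33 and 0.131 CPM in HepG2, and CALCOCO2 after it was at 110 CPM in H33 and 80.2 CPM in HepG2. In the kallikrein cluster KLK5 and KLK6 were at 28.1 and 500 CPM in H33, against 0.0796 and 1.01 CPM in HepG2, and of the flanking genes JOSD2, C19orf48 and CTU1 were higher and VSIG10L lower. JOSD2 was at 4.45 CPM in H33 and 0.447 CPM in HepG2, and VSIG10L at 3.05 CPM in H33 and 10.4 CPM in HepG2. On chromosome 9, MTAP was at 0.208 CPM in H33 and 86.5 CPM in HepG2, and MLLT3, FOCAD, KLHL9, CDKN2A and CDKN2B beside it were lower too. CDKN2A and CDKN2B were low in both lines, at 0.0195 and 0.0723 CPM in H33, against 1.15 and 1.68 CPM in HepG2. The nearest listed coding genes on either side, ACER2 and CAAP1, were under 2-fold. CAAP1 lies far off, starting at position 26840685, while CDKN2B ends at 22009363, so the bounds of the block are not known. Genes of these neighbourhoods other than those of the runs, HOXB2, HOXB8, HOXB9 and MTAP were chosen after their values were seen. DNA copy number was not measured.

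**Figure D4:**
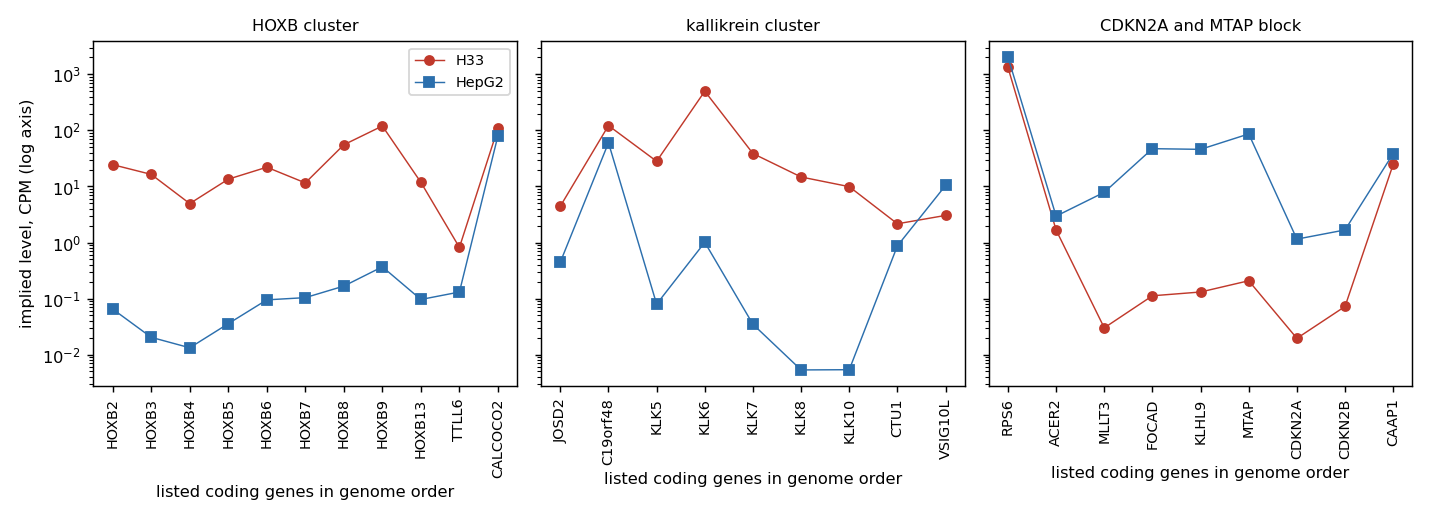
Implied CPM (log axis) of listed coding genes in genome order for 3 neighbourhoods, with H33 as red circles and HepG2 as blue squares. The HOXB genes and KLK5 to KLK10 are higher in H33 and the genes from MLLT3 to CDKN2B lower; levels of the flanking genes lie closer together, though several also differ by more than 2-fold.

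Chromosomes differed in the balance of direction. Of 425 listed coding genes on the X chromosome 39.1% were at least 2-fold higher and 20.7% lower, beside 20.6% higher and 22.2% lower over all coding genes of chromosomes 1 to 22 and X. Genes of chromosome Y and of the mitochondrial genome were left out of these counts. Those of chromosome Y were also left out of the gene lists and are not named here. Among genes of 5 to 8 log2 CPM, 65 of 163 X genes were higher and 18 lower, beside 12.7% higher and 17.7% lower among autosomal genes. On chromosome 19, 29.7% were higher and 14.8% lower, and on chromosome 20, 15.7% were higher and 33.1% lower.

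**Figure D5:**
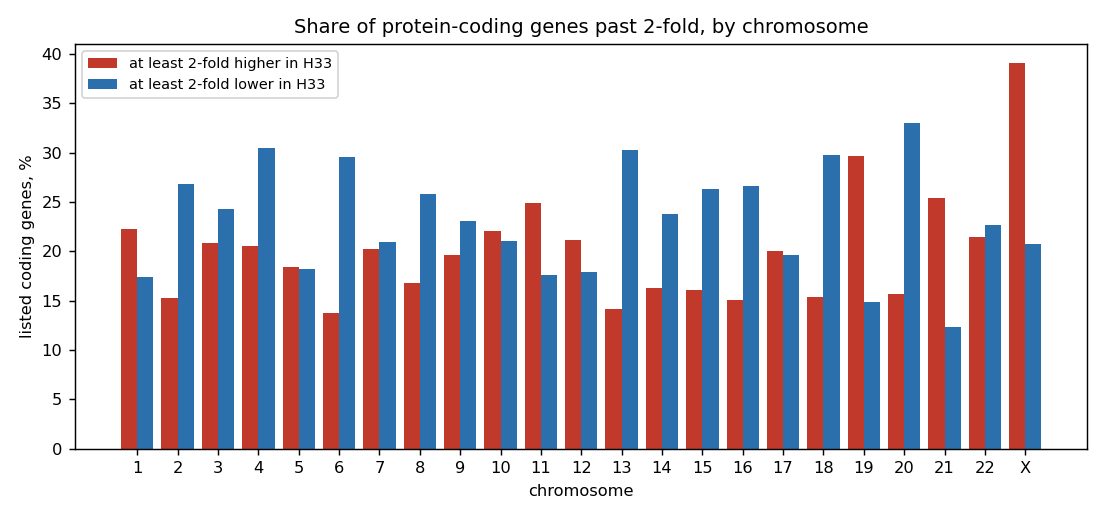
Percent of listed protein-coding genes at least 2-fold higher (red) or lower (blue) in H33, by chromosome. Chromosome X has the highest red bar, 39.1%, and chromosome 20 the highest blue bar, 33.1%.

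The second clone, H12, shares its HepG2 controls with this comparison, so its values are only set beside those of H33. SCG2 was at 2392 CPM in H33 and 2259 CPM in H12, against 0.142 CPM in HepG2, and HOXB9 was at 120 CPM in H33 and 116 CPM in H12, against 0.369 CPM in HepG2. ALB was at 21.99 CPM in H33 and 349 CPM in H12, against 20980 CPM in HepG2. The log2 fold change of ALB in the authors' deposited tables was -9.90 ± 0.07 for H33 and -5.92 ± 1.59 for H12. GPC3, a surface proteoglycan of liver tumours, was at 5.93 CPM in H33 and 70.4 CPM in H12, against 4150 CPM in HepG2. The log2 fold change of GPC3 was -9.45 ± 0.08 for H33 and -5.89 ± 1.56 for H12. AFP and APOB had values of -16.75 and -11.12 for H33, but of -5.94 ± 1.47 and -6.20 ± 1.57 for H12. With errors of this size, the H12 levels of these genes are uncertain. Single libraries are unknown, and a difference between the clones was not tested.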

How the data were processed

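Poly-A RNA of 6 H33 and 6 HepG2 libraries was sequenced, and samples were grouped by their title and cell line labels. Tools in the submitters' processing notes are edgeR 3.28.0, RSEM, STAR 2.5.3a and bcl2fastq 2.20.0.422, with the build GRCh38.p10 and no roles. Per the file headers, the authors deposited per gene a log2 fold change and mean log2 CPM, a likelihood ratio (a score), and p-values with their Benjamini-Hochberg adjustment, which are listed as 0 for 1801 genes. Filter, scaling and strand use were not given in the sources used here. The labels say biological replicates but not separate cultures, so p-values measure only the spread between these samples. No values per library were used, so depth is unknown and no SD or n per group value is given; the planned count test was replaced by the deposited statistics.

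Implied levels were computed as the mean CPM split by the fold change, and the SE as the absolute log2 fold change over the root of the likelihood ratio; this is not a sampling error near 0 CPM, where 135 genes in H33 and 75 in HepG2 lay under 0.01 CPM. Recalculated p-values matched the chi-square tail with 1 degree of freedom, and the calling was tested on simulated data. All 14888 identifiers were found in GENCODE 29 on GRCh38, used for position and biotype; 680 genes had no symbol. Genes with near-identical copies or overlapping neighbours are uncertain.

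Members, lists and tests were chosen with earlier results of these data known. Named genes were PRKACA and DNAJB1, the 5 largest rises and falls of each abundance class, the 20 highest of each line, the genes of a run and, per list or family, up to 4 called genes with the largest change and 2 with the highest mean CPM; some genes the rule takes are not reported here, and others are named as markers or as chosen after their values were seen, among them COL1A1. One family pattern (potassium channels) was narrowed after the data were seen. Alternatives were a stricter adjusted p, a filter on low values, 2 centrings, 0.1 CPM added to both levels, other abundance classes and, added after seeing the data, coding autosomal genes only. Figures were drawn with matplotlib 3.10.9, and values computed with pandas 2.3.3, scipy 1.17.1 and numpy 2.4.6 in Python 3.11.15.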

Additional observations from a re-analysis of the deposited data

How the results depend on the processing

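No paired analysis was possible because the deposited table holds no values per library, and for the same reason leaving out replicates was not run. Among the 445 named genes, no called one changed direction under any alternative that could give a value. Only the 2 centrings could change a sign, since the other settings keep it. ENO1, which was not called at a log2 fold change of -0.0102, changed sign when centred on the all-gene median of -0.016. Of the recounts of the lists, 523 stayed within 1.5 times while 17 moved. The number of genes at least 32-fold higher was 859, and 563 with at least 1 log2 CPM and 513 with 0.1 CPM added to both levels. With at least 1 log2 CPM these list counts moved: sodium and calcium channels higher 5, keratins and mucins higher 5, cadherins lower 8, HOX genes higher 9 and lower 0, SOX, GATA, TBX and PAX higher 3, Notch and Hedgehog higher 11, prostaglandins higher 2 and lower 1, MHC class II higher 4, cytokines lower 6, imprinted genes higher 1, and kinesins lower 5; this setting removes the members below it. Centring on the median of all genes gave 1 higher chaperonin gene in place of 0. Centring on the median of genes at 6 log2 CPM or more gave 5 lower MHC class I genes in place of 3, 2 lower translation factors in place of 1, and 0 higher nuclear pore genes in place of 1; this centring shifts each value by 0.02 log2 units. Coding autosomal genes alone, chosen after seeing the data, gave 2514 higher and 2805 lower genes. Depth per library is unknown, so no limit of detection was computed.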

Other observations

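Imprinted genes, which are expressed from the copy of 1 parent, were mostly lower in H33: 14 of 21 listed genes were at least 2-fold lower and 2 higher, beside 23.1% lower and 21.4% higher over all genes. PEG10, a retrotransposon-derived gene, was at 42.9 CPM in H33 and 3260 CPM in HepG2, and PEG3, a zinc finger gene, was at 1.24 CPM in H33 and 1171 CPM in HepG2. CDKN1C, a cell cycle inhibitor, went the other way, at 1.25 CPM in H33 and under 0.01 CPM in HepG2. Of 36 tumour suppressor genes 26 were under 2-fold, 3 were higher and 7 lower. ARID1B, a chromatin remodelling subunit, was lower, at 0.233 CPM in H33 and 80.2 CPM in HepG2. Among 41 genes of DNA methylation and silencing 10 were higher and 7 lower, 24.4% and 17.1%, near the shares of all genes. The largest changes were those of MBD2, a reader of methylated DNA, at 0.0993 CPM in H33 and 37.3 CPM in HepG2, and HDAC9, a histone deacetylase, at 144 CPM in H33 and 0.790 CPM in HepG2.

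Some noncoding transcripts changed by a large factor. Of 33 listed abundant noncoding RNAs 22 were under 2-fold, 7 higher and 4 lower. These shares, 21.2% higher and 12.1% lower, stand beside 21.4% and 23.1% of all genes, so the list as a whole was not changed more often. SNHG15, a small nucleolar RNA host gene, was at 38.05 CPM in H33 and 0.212 CPM in HepG2, and UCA1, first described in bladder cancer, was at 221 CPM in H33 and 2.67 CPM in HepG2. Of 166 long intergenic transcripts 51 were higher and 67 lower, 30.7% and 40.4%. Rare genes of any kind, at 0 to 2 log2 CPM, had 34.3% higher and 31.9% lower. LINC00261, a neighbour of FOXA2, was under 0.01 CPM in H33 and at 16.9 CPM in HepG2. Among 33 kinesins, the microtubule motors, 15 were higher and 8 lower; KIF1A, the motor of dense-core and synaptic vesicles, was at 66.8 CPM in H33 and 0.247 CPM in HepG2.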
